A study of Mus musculus with 10 samples.

Results

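Compound **1**, a 9-keto-hexadec-7-enoic acid with an E double bond, was tested at its lowest dose, 3.2 µM, in LPS-stimulated RAW264.7 cells, and the RNA of these cells was compared with that of cells given LPS and solvent alone. The comparison rests on 4 of the 10 RNA-seq libraries of the study, 2 at 3.2 µM + LPS and 2 of DMSO + LPS, which were taken by their labels, and it covers every gene counted. RAW264.7 is a mouse macrophage line grown in culture, so the values describe 1 cell line and not macrophages of an animal. The DMSO + LPS cells received 0.5% DMSO. Cells were pretreated for 1 h, LPS was then added at 1 µg/mL, and RNA was taken after 12 h. The other libraries, 2 each, were DMSO without LPS and **1** at 10 and 32 µM with LPS. Every library that received **1** also received LPS. The labels number 2 biological replicates per group but do not say whether these were separate cultures, so p-values measure only the spread between these samples, which may be technical.

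LPS is a component of the outer membrane of Gram-negative bacteria that binds TLR4 on macrophages. The receptor drives NF-κB, which switches on cytokines, chemokines and the nitric oxide synthase Nos2, and it induces interferon β, whose signal switches on a further group of interferon-stimulated genes. Compound **1** is a fatty acid with an enone, a group that can react with thiols. Nrf2 is a transcription factor that is held back by the cysteine-rich protein Keap1, and thiol-reactive compounds are known to free it to induce antioxidant genes such as Nqo1.

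The 4 libraries held between 48089580 and 58976377 counts. A gene at 5 CPM (read counts scaled for library size) was covered by 240 to 295 counts in each of them. Of 18 macrophage markers, 16 had a mean of at least 5 CPM in DMSO + LPS or at 3.2 µM, and their summed level was 12650 to 13440 CPM in the 4 libraries. Other cell types were checked as well. Of 10 osteoclast markers, 7 had a mean of at least 5 CPM in either group, and the 10 summed to 617.3 to 670.4 CPM. The T cell marker Lck (10.8 CPM in DMSO + LPS), the B cell marker Blnk (84.1 CPM) and the neutrophil marker S100a8 (6.35 CPM) were also above 5 CPM. T cell markers were at 0 counts in all 4 libraries for 6 of 8 genes. The 8 fibroblast markers summed to between 0.21 and 1.75 CPM, with the highest sum in replicate 1 at 3.2 µM. That replicate stood apart in another respect. It held 74 genes with at least 10 counts that had at most 1 count in each of the 3 other libraries, and all 74 also had at least 10 counts in replicate 1 at 10 µM. Genes of intestinal epithelium were among them, such as Lypd8 with 413 counts, which was picked once its values were known. The 74 genes made up 0.00488% of the library, and 0 of them passed 1.5-fold at an unadjusted p below 0.05. Reads on ribosomal RNA features made up 0.153 to 0.166% of the counts at 3.2 µM and 0.313 to 0.320% in DMSO + LPS. Most of that difference lay in Gm42418, a noncoding gene that overlaps ribosomal RNA sequence, with 114847 and 100370 counts in DMSO + LPS and 22773 and 21732 at 3.2 µM. Lars2, with 25077 and 21635 counts against 11409 and 11986, and the small nuclear RNA Rn7sk, with 209 and 156 against 42 and 53, were lower as well. Gm42418 and Lars2 were picked once their values were known. Rn7sk met the naming rule through its short transcript and an unadjusted p below 0.05 in edgeR's fit of all 10 libraries. These 3 genes passed in edgeR and DESeq2 on the 4 libraries alone and not in edgeR's fit of all 10 (adjusted p = 0.999 for each). In that fit replicate 2 at 32 µM held 1161205 counts of Gm42418 and 234850 of Lars2. Since these are bulk libraries, fewer cells of a type and less RNA per cell cannot be told apart.

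Most differences at 3.2 µM were small. Of 14172 genes tested, edgeR's quasi-likelihood test with Benjamini-Hochberg adjustment called 0 (0%) at 1.5-fold and an adjusted p below 0.05, and 0 (0%) at any fold. At an unadjusted p below 0.05 there were 600 genes (4.23%), of which 251 were higher (1.77%) and 349 lower (2.46%) at 3.2 µM. Only 120 of them (0.847%) also differed by 1.5-fold, 39 higher (0.275%) and 81 lower (0.572%). These were mostly weakly expressed, since 95 had a mean under 1 CPM and 5 a mean of 5 CPM or more. Without replicate 1 at 3.2 µM the counts were 23 higher and 64 lower. The excess of lower genes turned in other fits, with 118 higher and 93 lower under a replicate block, 112 and 91 in edgeR's likelihood ratio test and 197 and 157 in edgeR on the 4 libraries alone. The other tools called more at the adjusted p. DESeq2 on the 10 libraries called 8 genes and 39 at any fold (0.275%). Of the 8, Hal, Mmp9, Pmepa1 and Thbs1 are described below, and the other 4, Krt19, Lypd8, Pigr and Tff3, were epithelial genes with 49 to 413 counts in replicate 1 at 3.2 µM and 0 in the 3 other libraries. At the adjusted p, the likelihood ratio test of edgeR called 3, namely Mmp9, Pmepa1 and Thbs1. When the 4 libraries were fitted alone, with 13391 genes tested, edgeR called 66 genes and DESeq2 48. Of those called with a known transcript length, 34 of 65 (52.3%) and 23 of 47 (48.9%) were under 1000 nt. Among the genes tested with all 10 libraries, a different set, 1530 of 14074 with a known length were in this class. The libraries differed as a whole in that class (described with the plot by transcript length).

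The libraries were precise enough to bound most differences. The 95% interval of the fold change lay within 1.5-fold in either direction for 9592 of the 14172 genes (67.7%), and for 8912 of 9496 genes (93.9%) with a mean of 5 CPM or more. From the estimate to either end, that interval spanned a median of 0.18 on the log2 scale over the latter genes and of 1.25 over genes under 1 CPM. These intervals are not adjusted for the number of genes, and the 5 genes of at least 5 CPM past 1.5-fold at the unadjusted p did not pass the adjusted test.

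**Figure D1:**
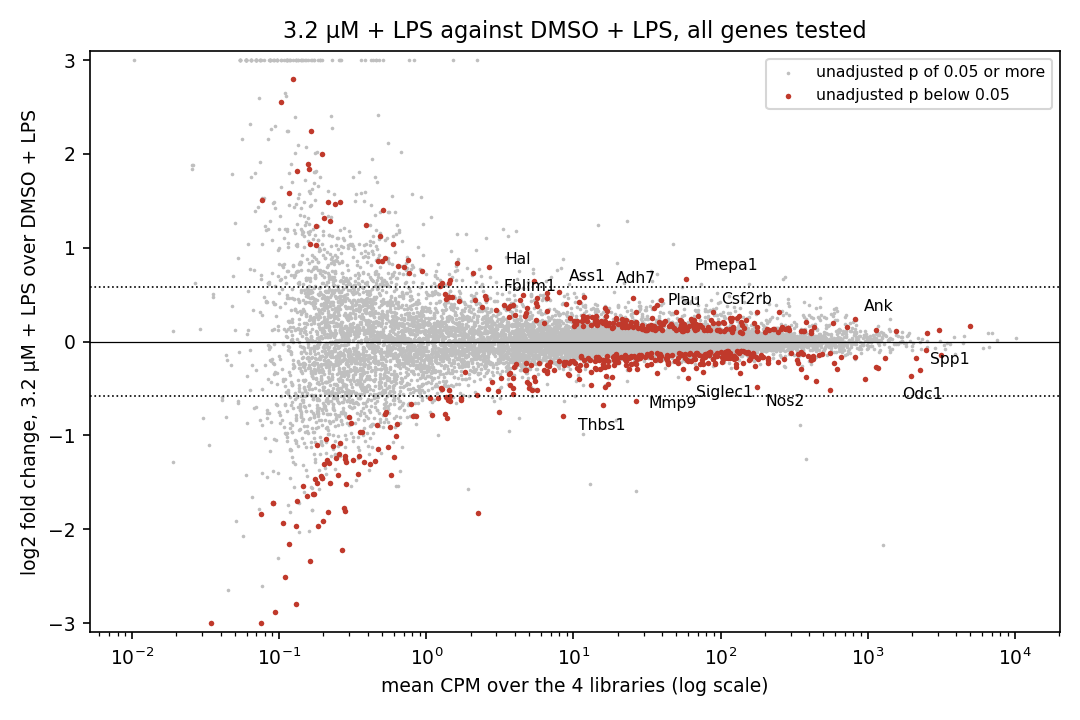
Log2 fold change of 3.2 µM + LPS over DMSO + LPS against the mean CPM of the 4 libraries (log scale) for the 14172 genes tested; red points have an unadjusted p below 0.05, the dotted lines mark 1.5-fold, and values beyond 3 or −3 are drawn at the edge. Most red points that lie outside the dotted lines are at under 1 CPM, and above 5 CPM the labelled Pmepa1, Hal, Thbs1 and Mmp9 lie outside them.

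Among genes with a mean of at least 5 CPM, the 10 with the smallest p were Odc1, Spp1, Csf2rb, Pmepa1, Adh7, Siglec1, Thbs1, Plau, Ank and Fblim1. For each of them both libraries at 3.2 µM lay on the same side of both DMSO + LPS libraries, as was the case for 24.4% of all genes in the higher and 21.5% in the lower direction. Their adjusted p in the quasi-likelihood test of edgeR lay between 0.111 and 0.383, so 0 of the 10 passed. Positions below are those of GENCODE M21 on GRCm38.

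The lower ones were all at higher levels in DMSO + LPS than in DMSO. Odc1 (ENSMUSG00000011179, chr12:17544794-17551505), which encodes ornithine decarboxylase, the first enzyme of polyamine synthesis, was at 2222 and 2191 CPM in DMSO + LPS and at 1678 and 1738 CPM at 3.2 µM. The groups did not overlap, and at 3.2 µM the mean was 77.4% of the DMSO + LPS mean (log2 fold change −0.37, 95% interval −0.46 to −0.28). Spp1 (ENSMUSG00000029304, chr5:104435118-104441050), which encodes the secreted phosphoprotein osteopontin, was at 2509 and 2508 CPM in DMSO + LPS and at 2031 and 2042 CPM at 3.2 µM. Its replicates were nearly equal within each group, and the log2 fold change was −0.30 (95% interval −0.37 to −0.23). Siglec1 (ENSMUSG00000027322, chr2:131069220-131086765), a sialic acid-binding receptor of macrophages, was at 70.9 and 65.0 CPM in DMSO + LPS and at 52.1 and 51.5 CPM at 3.2 µM, a log2 fold change of −0.39. Thbs1 (ENSMUSG00000040152, chr2:118111876-118127133), which encodes the matrix protein thrombospondin-1, was at 19.8 and 19.3 CPM in DMSO + LPS and at 12.7 and 11.8 CPM at 3.2 µM, a log2 fold change of −0.68 (95% interval −0.89 to −0.47). Thbs1 had 0 counts in both DMSO libraries, so nearly all of its signal came with LPS.

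The higher ones had more varied levels without LPS. Csf2rb (ENSMUSG00000071713, chr15:78325752-78353847), the β chain shared by the receptors for GM-CSF, IL-3 and IL-5, was at 79.5 and 79.3 CPM in DMSO + LPS and at 98.6 and 99.2 CPM at 3.2 µM, a log2 fold change of 0.32 (95% interval 0.23 to 0.40). Csf2rb has a close paralog, and reads shared by the pair could have been counted for either, so its value is uncertain to that extent. Pmepa1 (ENSMUSG00000038400, chr2:173224458-173276533), an inhibitor of TGF-β signalling that is itself a target of that pathway, was at 42.9 and 46.7 CPM in DMSO + LPS and at 73.5 and 69.1 CPM at 3.2 µM. It had the largest log2 fold change of the 10 upwards, 0.67 (95% interval 0.47 to 0.88), and it stood at 100.2 and 90.2 CPM in DMSO without LPS. Adh7 (ENSMUSG00000055301, chr3:138217760-138233382), an alcohol dehydrogenase that acts on retinol and other long-chain alcohols, was at 21.6 and 21.1 CPM in DMSO + LPS and at 28.8 and 30.1 CPM at 3.2 µM, a log2 fold change of 0.47 (95% interval 0.32 to 0.61).

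The remaining 3 of these genes were also higher at 3.2 µM. Plau (ENSMUSG00000021822, chr14:20836660-20843385) encodes urokinase, the protease that activates plasminogen, and was at 31.0 and 32.6 CPM in DMSO + LPS and at 40.6 and 43.0 CPM at 3.2 µM (log2 fold change 0.39). Ank (ENSMUSG00000022265, chr15:27466677-27594909), a membrane protein needed for the export of pyrophosphate, was at 758.9 and 759.0 CPM in DMSO + LPS and at 895.5 and 892.7 CPM at 3.2 µM. The difference of Ank was small, 0.24 on the log2 scale (95% interval 0.16 to 0.32), but large beside that between its replicates. Fblim1 (ENSMUSG00000006219, chr4:141576062-141606096), an adaptor of focal adhesions, was at 7.51 and 7.79 CPM in DMSO + LPS and at 10.3 and 9.90 CPM at 3.2 µM (log2 fold change 0.40).

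The values of these genes at the higher doses are given beside those at 3.2 µM; the dose comparisons share the DMSO + LPS libraries and are not independent of each other. Odc1 had log2 fold changes of −0.94 at 10 µM and −1.61 at 32 µM, and Spp1 of −0.85 and −1.56. Siglec1 reached −1.96 and Thbs1 −3.37 at 32 µM. Adh7 reached 1.39 at 10 µM and 2.61 at 32 µM. For these genes 3.2 µM was thus well short of the higher doses, and a direct test of 10 µM against 3.2 µM in the same edgeR fit gave −0.57 for Odc1 (adjusted p = 0.00106), −0.55 for Spp1 (adjusted p = 6.24e-04), −0.54 for Siglec1 (adjusted p = 0.00720) and 0.93 for Adh7 (adjusted p = 0.00106). Thbs1 differed by −0.50 between those doses (adjusted p = 0.0757). Ank reached log2 fold changes of 0.59 at 10 µM and 0.70 at 32 µM, and its difference between 10 and 3.2 µM was 0.35 (edgeR adjusted p = 0.00633).

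For other genes the step from 3.2 to 10 µM did not pass the test. Pmepa1 was at 84.3 and 74.1 CPM at 10 µM and at 82.4 and 75.2 CPM at 32 µM, and its log2 difference between 10 and 3.2 µM was 0.15 (95% interval −0.05 to 0.35, edgeR adjusted p = 0.766). Csf2rb was at 105.5 and 106.4 CPM at 10 µM and differed from 3.2 µM by 0.10 (95% interval 0.01 to 0.18, edgeR adjusted p = 0.469). Fblim1 had log2 fold changes of 0.63 at both higher doses and differed by 0.22 between 10 and 3.2 µM (95% interval 0.08 to 0.37, edgeR adjusted p = 0.260). Plau was at 42.2 and 43.3 CPM at 10 µM, which overlapped its values at 3.2 µM, and at 29.1 and 30.8 CPM at 32 µM. The step from 3.2 to 32 µM in Plau was −0.48 (edgeR adjusted p = 0.00177), so its highest levels were at the lower doses. Adjusted p values that miss the threshold do not show that the doses acted alike, and the intervals give the differences that remain possible.

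**Figure D2:**
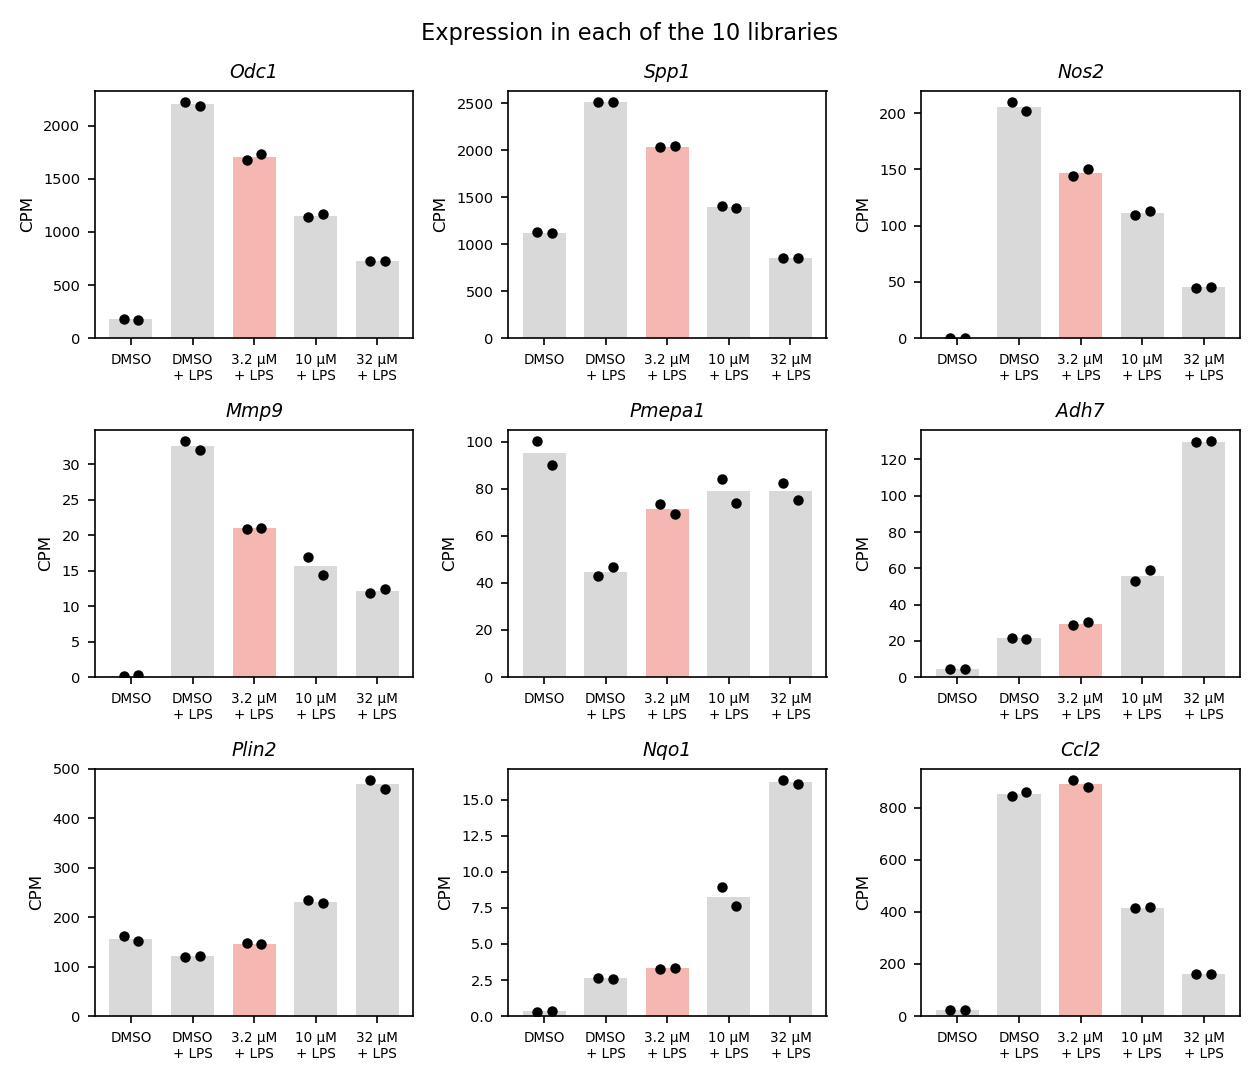
CPM of 9 genes in each of the 10 libraries, with a bar for the mean of the 2 replicates, points for the replicates and the 3.2 µM + LPS bar in red. Odc1, Spp1, Nos2 and Mmp9 stood lower at 3.2 µM than in DMSO + LPS, Pmepa1, Adh7, Plin2 and Nqo1 stood higher, and Ccl2, at 905.7 and 878.9 CPM at 3.2 µM against 844.3 and 861.8 CPM, was lower only at 10 and 32 µM.

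RefSeq promoter windows were found for 5 of the 10 genes (Adh7, Ank, Fblim1, Odc1 and Spp1), and 3 are shown with that of the Nrf2 target Prdx1 because they hold at least 1 of 3 motifs searched on both strands. The motifs were TGACNNNGC, the core of the antioxidant response element bound by Nrf2, TGANTCA, bound by AP-1, and the motif that reads GAAA, any 2 bases and GAAA again, bound by interferon regulatory factors. They occurred in 10.2%, 6.75% and 2.98% of 32851 windows, each searched over the 250 bases before the start. Each line gives the 250 bases before the RefSeq start of the gene, 5′ to 3′ on the strand of the gene, on GRCm38.p6, with every match in capitals. Prdx1 (chr4:116685349-116685598, plus strand) and Fblim1 (chr4:141606053-141606302, minus strand) hold TGACNNNGC on the opposite strand. Both also hold TGANTCA, Fblim1 at 80 to 74 bases before the start and Prdx1 at 237 to 231 bases and again at 131 to 125 bases, where it overlaps TGACNNNGC. Adh7 (chr3:138217523-138217772, plus strand) holds TGANTCA, and Spp1 (chr5:104434861-104435110, plus strand) holds the last motif on the opposite strand. A match describes the letters of the window and is not evidence of binding.
Prdx1: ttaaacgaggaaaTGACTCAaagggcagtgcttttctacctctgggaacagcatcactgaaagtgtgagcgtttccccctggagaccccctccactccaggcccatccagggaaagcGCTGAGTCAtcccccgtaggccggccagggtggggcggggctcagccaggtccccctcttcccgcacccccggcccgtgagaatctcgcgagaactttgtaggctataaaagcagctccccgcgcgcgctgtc
Fblim1: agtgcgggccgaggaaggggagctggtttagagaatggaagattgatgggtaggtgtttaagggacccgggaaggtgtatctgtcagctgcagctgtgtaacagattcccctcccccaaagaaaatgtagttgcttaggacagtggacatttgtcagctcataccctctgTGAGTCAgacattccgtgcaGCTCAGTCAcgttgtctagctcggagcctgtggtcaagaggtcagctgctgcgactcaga
Adh7: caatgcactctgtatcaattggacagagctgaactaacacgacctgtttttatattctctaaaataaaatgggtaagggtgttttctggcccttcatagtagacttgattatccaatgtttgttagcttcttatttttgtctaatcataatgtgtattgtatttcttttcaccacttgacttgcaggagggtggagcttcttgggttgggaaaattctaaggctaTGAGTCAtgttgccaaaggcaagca
Spp1: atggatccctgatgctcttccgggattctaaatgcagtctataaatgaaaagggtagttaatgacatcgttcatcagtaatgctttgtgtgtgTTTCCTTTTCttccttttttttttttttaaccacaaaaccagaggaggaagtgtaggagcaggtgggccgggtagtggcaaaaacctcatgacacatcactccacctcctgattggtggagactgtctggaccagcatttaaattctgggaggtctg

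Most of the antioxidant genes of Nrf2 differed by small amounts at this dose. Of 38 targets listed, 37 were tested, and 25 were higher and 12 lower. Their log2 fold changes ran from −0.39 to 5.70, with the interval within 1.5-fold for 28 of the 37 (75.7% beside 67.7% of all genes). Their median log2 fold change was 0.063 beside 0.004 over all genes tested. Both libraries at 3.2 µM lay above both DMSO + LPS libraries for 17 of them (45.9% beside 24.4% of all genes) and below for 4 (10.8% beside 21.5%). Only Nqo1 and Prdx1, both higher, had an unadjusted p below 0.05 (5.41% of the list beside 1.77% of all genes), and neither passed the adjusted test. Nqo1, a quinone reductase, was at 2.65 and 2.58 CPM in DMSO + LPS and at 3.26 and 3.35 CPM at 3.2 µM, a log2 fold change of 0.34 (95% interval 0.08 to 0.60). Its level at 10 µM was 8.94 and 7.61 CPM and that at 32 µM 16.3 and 16.1 CPM. The step from 3.2 to 10 µM in Nqo1, 1.32 on the log2 scale (edgeR adjusted p = 0.00311), was thus larger than that from DMSO + LPS to 3.2 µM. Prdx1, a peroxiredoxin that removes hydrogen peroxide, was at 4654 and 4749 CPM in DMSO + LPS and at 5305 and 5268 CPM at 3.2 µM (log2 fold change 0.17, 95% interval 0.04 to 0.30).

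Further well-known members of the Nrf2 list were near the DMSO + LPS level. Srxn1 (sulfiredoxin) had a log2 fold change of 0.06, Txnrd1 (thioredoxin reductase) of 0.08 and Gclm (a subunit of the enzyme that starts glutathione synthesis) of 0.04. Hmox1, heme oxygenase, was at 1242 and 1263 CPM in DMSO + LPS and at 1187 and 1170 CPM at 3.2 µM, a log2 fold change of −0.09 (95% interval −0.22 to 0.04). The interval of each of these 4 genes included 0 and stayed within 1.5-fold. At 32 µM their log2 fold changes were 0.77, 0.56, 0.88 and 0.43.

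Of the NF-κB-dependent inflammatory genes, 54 of 56 were tested, 21 higher and 33 lower. The list median on the log2 fold change scale was −0.025. At an unadjusted p below 0.05 there were 7 lower (13.0% of the list beside 2.46% of all genes) and 2 higher (3.70% beside 1.77%), and 0 passed the adjusted test. Nos2, which makes nitric oxide, was at 209.6 and 201.5 CPM in DMSO + LPS and at 143.9 and 149.95 CPM at 3.2 µM. The groups were far apart relative to their replicates, and the log2 fold change was −0.48 (95% interval −0.68 to −0.29, edgeR adjusted p = 0.457). Mmp9, a gelatinase that cuts matrix collagen, was at 33.2 and 31.9 CPM in DMSO + LPS and at 20.9 and 21.0 CPM at 3.2 µM (log2 fold change −0.64, edgeR adjusted p = 0.488). Il1rn, the antagonist of the IL-1 receptor, was at 2286 and 2241 CPM in DMSO + LPS and at 2002 and 2001 CPM at 3.2 µM (log2 fold change −0.18).

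Growth factors and cytokines of the same list differed in direction. Csf3, the granulocyte growth factor G-CSF, was at 1213 and 1269 CPM in DMSO + LPS and at 1035 and 1020 CPM at 3.2 µM (log2 fold change −0.27). Il6, a cytokine of the acute phase, was at 94.7 and 99.0 CPM and at 81.7 and 79.9 CPM, and the interval of its log2 fold change of −0.26 just included 0 (−0.53 to 0.01). Higher at 3.2 µM was the neutrophil chemokine Cxcl3, at 31.9 and 35.5 CPM in DMSO + LPS and 46.6 and 44.7 CPM at 3.2 µM (log2 fold change 0.44, 95% interval 0.20 to 0.68). Cxcl3 reached 1.10 at 10 µM and 1.82 at 32 µM.

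Several main products of LPS-stimulated macrophages were close to DMSO + LPS at 3.2 µM while they were lower at 10 µM. Ccl2, a chemokine for monocytes, had a log2 fold change of 0.06 (95% interval −0.03 to 0.16) at 3.2 µM and of −1.03 at 10 µM, and the direct difference between these doses was −1.10 (edgeR adjusted p = 7.00e-05). Il1b, the cytokine IL-1β, was at 1529 and 1541 CPM in DMSO + LPS, at 1492 and 1519 CPM at 3.2 µM and at 885.6 and 829.1 CPM at 10 µM. Its log2 fold change at 3.2 µM was −0.03 (95% interval −0.13 to 0.07), and its difference between 10 and 3.2 µM was −0.81 (edgeR adjusted p = 4.20e-04). Il1a, which encodes IL-1α, was with Cxcl3 the other higher member at the unadjusted p, with a log2 fold change of 0.11 at 3.2 µM (95% interval 0.01 to 0.22) and of −0.83 at 10 µM. At 3.2 µM the interval of Ccl2 spanned 0.982 to 1.11 times the DMSO + LPS level and that of Il1b 0.916 to 1.05 times. Whether their response to dose differs from that of Nos2 or Odc1 was not tested.

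Tnf and Ptgs2 were near DMSO + LPS at both lower doses. Tnf was at 1396 and 1422 CPM in DMSO + LPS, 1461 and 1441 CPM at 3.2 µM and 1440 and 1450 CPM at 10 µM, with a log2 fold change of 0.04 at 3.2 µM (95% interval −0.04 to 0.13). Ptgs2, the cyclooxygenase that starts prostaglandin synthesis, was at 4578 and 4315 CPM in DMSO + LPS and 4316 and 4471 CPM at 3.2 µM, so the groups overlapped.

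Interferon-stimulated genes were slightly lower as a list. Of 60 listed, 59 were tested, and 50 were lower and 9 higher, with a median log2 fold change of −0.094. Both libraries at 3.2 µM lay below both DMSO + LPS libraries for 38 of them (64.4% beside 21.5% of all genes) and above for 6 (10.2% beside 24.4%). At an unadjusted p below 0.05 there were 11 lower (18.6% beside 2.46%) and 1 higher (1.69% beside 1.77%), and 0 passed the adjusted test. The per-library medians were −0.088 and −0.077 for the 3.2 µM replicates and 0.016 and −0.016 for the DMSO + LPS replicates. The interval lay within 1.5-fold for 53 of the 59.

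Apart from Cxcl9, the interferon-stimulated genes with an unadjusted p below 0.05 differed by little. Cxcl9, a chemokine for T cells, was barely detected, with 19 and 12 counts in DMSO + LPS and 6 and 1 at 3.2 µM, and its log2 fold change of −1.97 had a wide interval (−3.65 to −0.36). Mx2, an antiviral GTPase, was at 46.6 and 46.1 CPM in DMSO + LPS and at 40.4 and 40.3 CPM at 3.2 µM (log2 fold change −0.20). Irf7, the transcription factor that amplifies the interferon response, was at 848.7 and 875.5 CPM in DMSO + LPS and at 771.0 and 767.1 CPM at 3.2 µM (log2 fold change −0.16), and Stat2, which carries the interferon signal to the nucleus, differed by −0.14. Ifi44l was next to Cxcl9 in size, at 83.7 and 84.7 CPM against 66.4 and 67.9 CPM (log2 fold change −0.33, 95% interval −0.57 to −0.09). Ifit1bl1 was the 1 member above 0 at an unadjusted p below 0.05 (0.21). Ifit1, whose protein binds viral RNA, had a log2 fold change of −0.10, the ubiquitin-like Isg15 of −0.01 and the chemokine Cxcl10 of 0.00, each with an interval that included 0. At 32 µM the same 3 genes were at −2.05, −1.84 and −1.97.

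**Figure D3:**
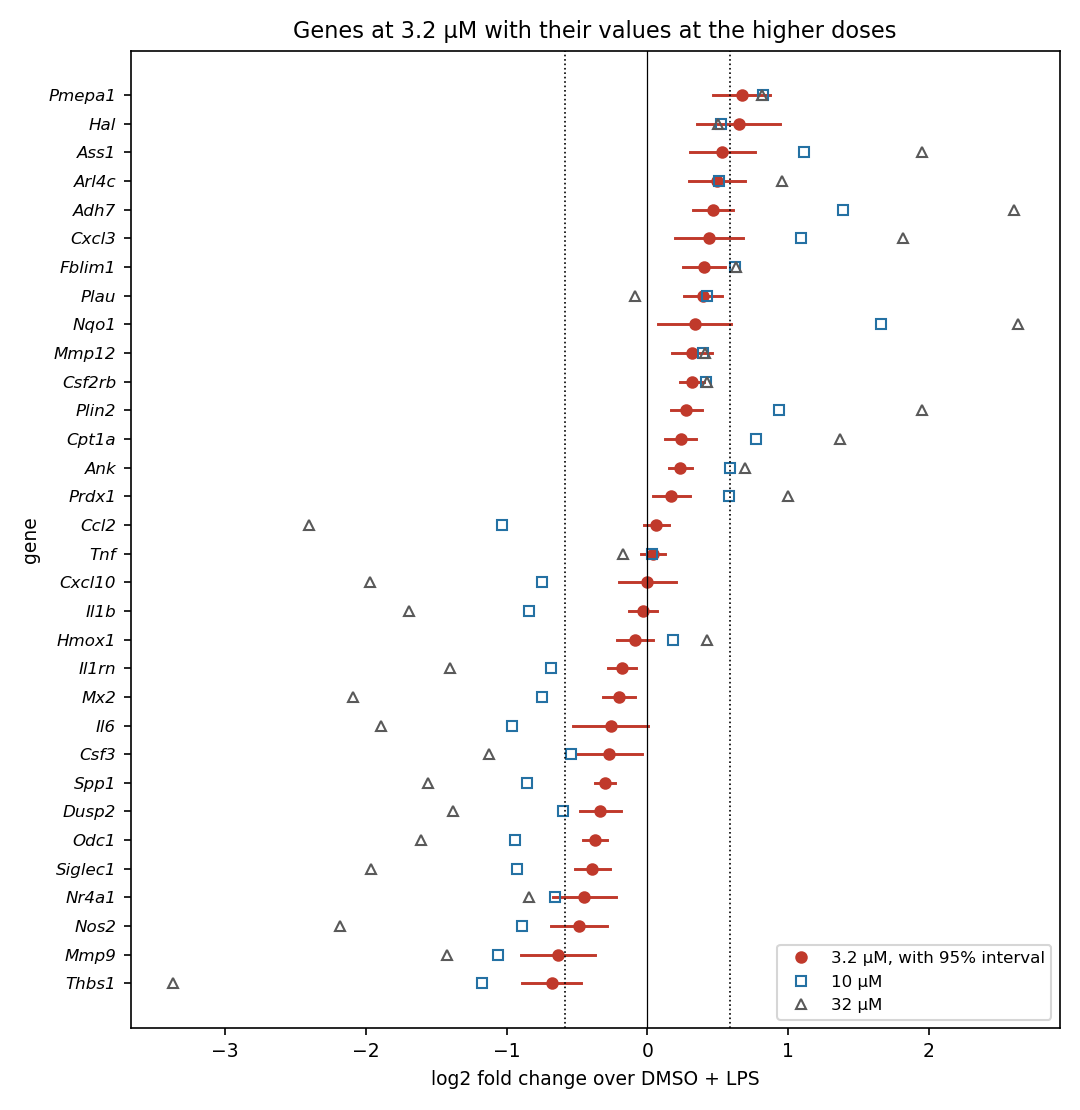
Log2 fold change over DMSO + LPS of 32 genes, with the 95% interval of the 3.2 µM value as a red bar, squares for 10 µM and triangles for 32 µM; the dotted lines mark 1.5-fold. The 3.2 µM intervals of Ccl2, Tnf, Cxcl10, Il1b, Hmox1 and Il6 include 0, whereas those of Odc1, Spp1, Nos2, Mmp9 and Thbs1 lie below it.

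Of 21 polyamine and arginine genes, 16 were lower and 5 higher, with a median log2 fold change of −0.031. Beside Odc1, Sat1, which acetylates polyamines for export, was at 347.9 and 354.4 CPM in DMSO + LPS and at 303.0 and 311.3 CPM at 3.2 µM (log2 fold change −0.19). Smox, which oxidizes spermine, was higher (log2 fold change 0.21), and Ass1, which makes argininosuccinate for arginine synthesis, was at 6.13 and 6.84 CPM in DMSO + LPS and at 9.15 and 9.60 CPM at 3.2 µM (log2 fold change 0.53, 95% interval 0.30 to 0.77). Ass1 thus stood higher and Nos2, which uses arginine, lower.

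Matrix genes and proteases numbered 29 tested, 11 higher and 18 lower, and TGF-β response genes 30, 17 higher and 13 lower. Their median log2 fold changes were −0.020 and 0.008. Next to Thbs1, Mmp9 and Plau, the stromelysin Mmp3 was at 6.30 and 6.15 CPM in DMSO + LPS and at 4.66 and 4.65 CPM at 3.2 µM (log2 fold change −0.42), and the elastase Mmp12 was at 45.98 and 43.0 CPM and at 54.6 and 56.5 CPM (log2 fold change 0.32). The inhibitors of DNA binding Id1 and Id3 were lower while Pmepa1 was higher. Id3 was at 39.7 and 42.4 CPM in DMSO + LPS and at 31.8 and 33.2 CPM at 3.2 µM (log2 fold change −0.34), and Id1 differed by −0.27.

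Of 33 fatty acid and lipid droplet genes, 17 were higher and 16 lower (median 0.010), and Plin2 and Cpt1a had an unadjusted p below 0.05 (6.06% of the list higher beside 1.77% of all genes). Plin2, which coats lipid droplets, was at 119.8 and 122.0 CPM in DMSO + LPS and at 147.2 and 146.0 CPM at 3.2 µM, a log2 fold change of 0.28 (95% interval 0.17 to 0.39, edgeR adjusted p = 0.457). Cpt1a, which admits fatty acids to mitochondria for oxidation, was at 58.1 and 56.9 CPM in DMSO + LPS and at 67.4 and 68.2 CPM at 3.2 µM (log2 fold change 0.24, 95% interval 0.13 to 0.35). At 32 µM Plin2 was at 1.95 and Cpt1a at 1.37. The 21 cholesterol synthesis genes had a median of −0.026, with 17 lower and 4 higher, and all 21 intervals lay within 1.5-fold.

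The 16 LXR targets had 4 members higher (25% beside 1.77% of all genes) and 1 lower (6.25% beside 2.46%) at an unadjusted p below 0.05. Arl4c, a small GTPase, was at 3.86 and 3.68 CPM in DMSO + LPS and at 5.39 and 5.25 CPM at 3.2 µM (log2 fold change 0.50), and the cholesterol exporter Abcg1 had a log2 fold change of 0.23 and the desaturase Scd2 of 0.15. The fatty acid synthase Fasn was the lower one (−0.18). The list had a median of 0.013 and included 0 adjusted calls. Among 36 lysosome genes, which were evenly split at 18 higher and 18 lower, Lipa, the acid lipase, was at 701.7 and 674.1 CPM in DMSO + LPS and at 758.2 and 772.7 CPM at 3.2 µM (0.15), Gpnmb differed by 0.12, and the protease Ctsc by −0.19.

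Of 28 early response factors, 13 were higher and 15 lower, 3 and 6 of them at an unadjusted p below 0.05 (10.7% and 21.4% of the list beside 1.77% and 2.46% of all genes). The nuclear receptor Nr4a1 was at 19.2 and 20.7 CPM in DMSO + LPS and at 14.1 and 15.1 CPM at 3.2 µM (log2 fold change −0.45), and the phosphatase Dusp2 was at 147.2 and 153.6 CPM and at 118.5 and 120.3 CPM (−0.33). The zinc finger factor Egr2 was higher (0.42), as were Atf3 (0.21) and Myc (0.17). Glucocorticoid-induced genes, 19 tested, had 4 lower (21.1% beside 2.46% of all genes) and 1 higher (5.26% beside 1.77%) at an unadjusted p below 0.05, among them Cebpd (−0.28) and Dusp1 (−0.13).

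Medians within 0.04 of 0 were found for heat-shock genes (20 tested, median 0.014), ATF4 and endoplasmic reticulum stress genes (33, −0.004), cell-division genes (34, 0.003), DNA replication genes (30, −0.024), glycolysis and hypoxia genes (31, 0.029), TLR4 pathway genes (32, −0.035) and macrophage markers (18, −0.037). Itgam, the integrin chain CD11b and a macrophage marker, was at 458.2 and 425.3 CPM in DMSO + LPS and at 380.6 and 388.6 CPM at 3.2 µM (log2 fold change −0.20). Actb, β-actin, differed by −0.06 (95% interval −0.15 to 0.04).

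**Figure D4:**
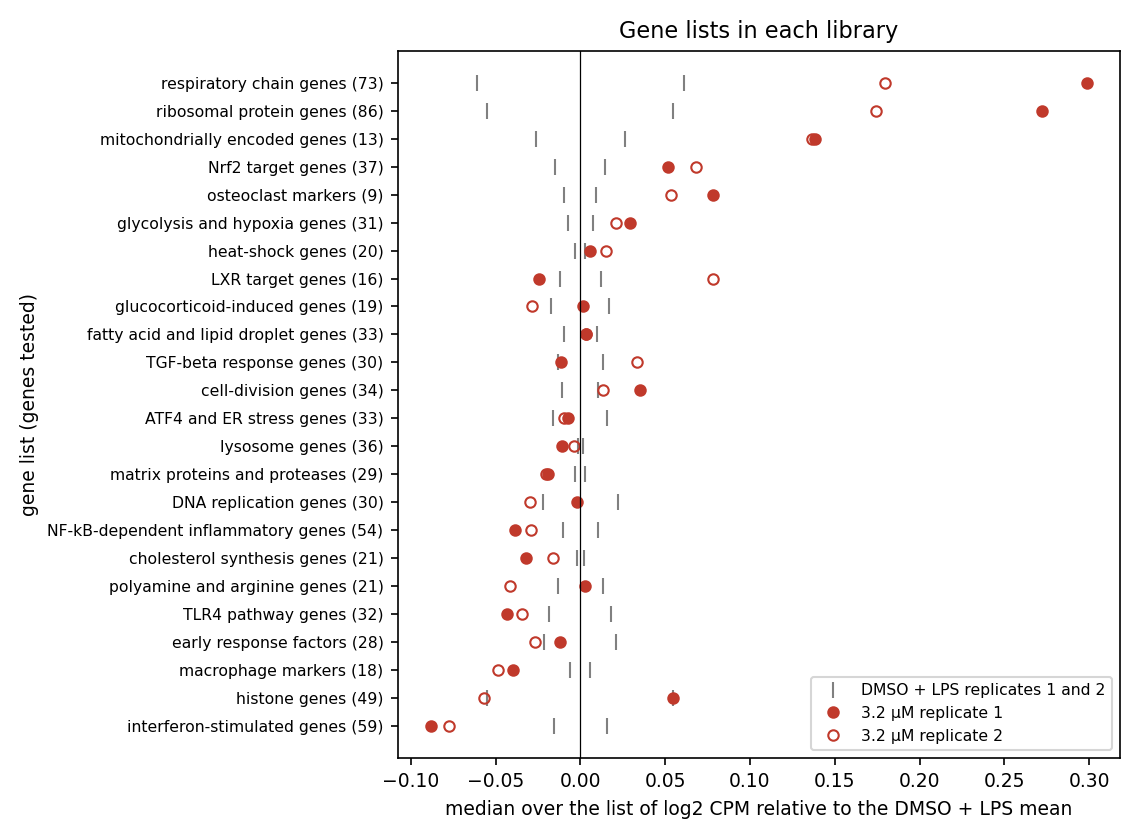
Median over each gene list with at least 9 genes tested of the log2 CPM relative to the mean of the DMSO + LPS libraries, for each 3.2 µM replicate (red) and each DMSO + LPS replicate (grey ticks), with the number of genes tested in brackets. Interferon-stimulated genes were lowest among these lists, at −0.088 and −0.077, and ribosomal protein and respiratory chain genes highest, at 0.27 and 0.17 and at 0.30 and 0.18.

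Ribosomal protein and respiratory chain genes were higher at 3.2 µM as lists, and so were short transcripts in general. Of 86 ribosomal protein genes 82 were higher, with a median log2 fold change of 0.23, and of 73 genes of the respiratory chain 68 were higher, with a median of 0.24. Both libraries lay above both of DMSO + LPS for 84.9% and 78.1% of them, beside 24.4% of all genes. The interval lay within 1.5-fold for 33 of the 86 and 23 of the 73, and 0 members of either list had an unadjusted p below 0.05, beside 4.23% of all genes. The median length of the longest transcript was 1054 nt and 983 nt in these lists and 3034.5 nt over all genes. Mitochondrially encoded genes, 13 in all, had 11 higher and 2 lower (median 0.13), and their share of the library was 1.36 to 1.42% in the 4 libraries.

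By length, the median log2 fold change was 0.17 for 532 genes with a longest transcript under 500 nt, 0.12 for 998 genes of 500 to 1000 nt, 0.021 for 2552 genes of 1000 to 2000 nt, 0.001 for 5411 genes of 2000 to 4000 nt and −0.009 for 4581 longer genes. The same gradient separated replicates of 1 group. Under 500 nt, replicate 2 differed from replicate 1 by −0.37 in DMSO, 0.11 in DMSO + LPS, −0.09 at 3.2 µM, −0.47 at 10 µM and −0.39 at 32 µM. In this class the difference of 3.2 µM from DMSO + LPS, 0.17, was thus smaller than that between replicates in DMSO, at 10 µM and at 32 µM. It was larger than that between replicates in DMSO + LPS and at 3.2 µM, the 2 groups compared.

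**Figure D5:**
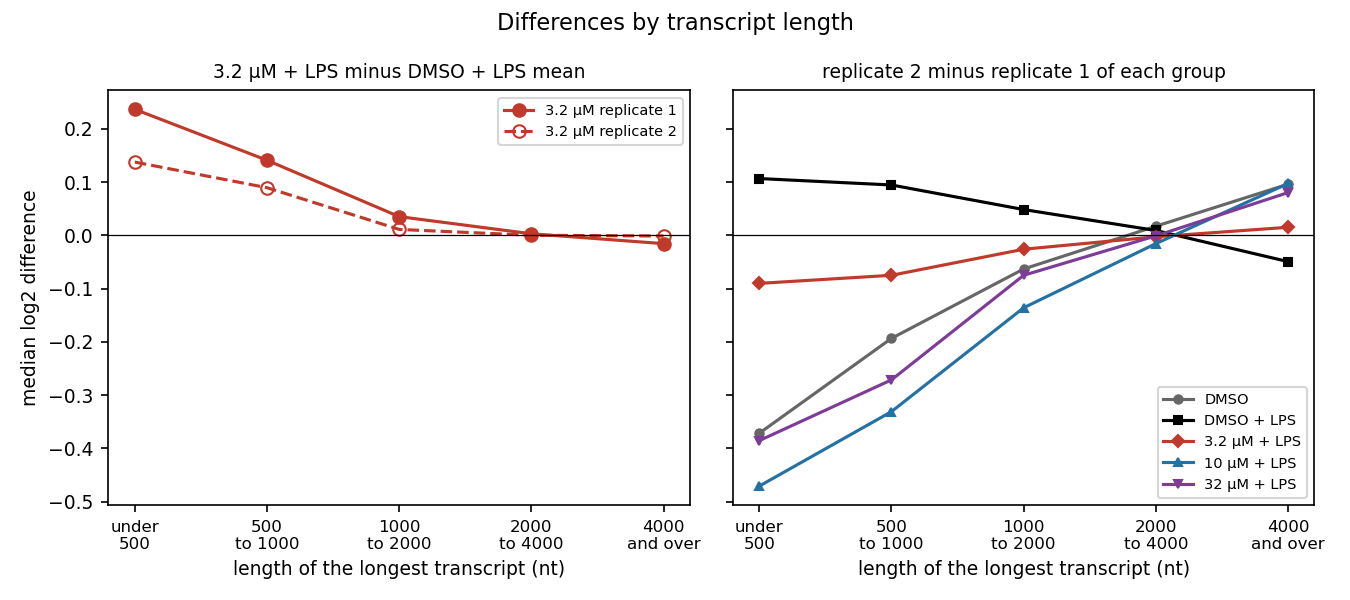
Median log2 difference in 5 classes of transcript length (nt), for each 3.2 µM replicate relative to the DMSO + LPS mean (left) and for replicate 2 minus replicate 1 of each group (right). On the left both replicates decline from 0.24 and 0.14 under 500 nt to about 0 from 2000 nt on, and on the right the lines span −0.47 to 0.11 under 500 nt.

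To score the gradient in each library, log2 CPM was centred on each gene's mean of the 10 libraries, and the median was taken across 1491 short-transcript genes (under 1000 nt, no ribosomal protein genes). It was −0.004 and 0.094 in DMSO + LPS and 0.19 and 0.13 at 3.2 µM, so the groups did not overlap, and within these 4 libraries the dose and the score cannot be told apart. The score can be set against the other 6 libraries, which the fit of all 10 does. With the score as a term, 1894 genes had an unadjusted p below 0.05 in edgeR's quasi-likelihood test, beside 600 without it. At an adjusted p below 0.05 the same test gave 183 genes at any fold (1.29%), 103 higher (0.727%) and 80 lower (0.564%), of which 6 passed 1.5-fold. These 6 were Pmepa1, Hal and Angptl2, higher, and Mmp9, Thbs1 and Gm9115, lower. All 183 had the sign of the fit without the score, 180 had a mean of 5 CPM or more, 1 had a transcript under 1000 nt, and 35 also passed in DESeq2 on the 10 libraries. With the replicate block added, 157 genes passed, 138 of them among the 183. When the gradient was instead taken out as a length trend in each library, 0 genes passed at any fold in the same test (826 at an unadjusted p below 0.05), while the fold changes stayed close, with Nos2 at −0.48 and Pmepa1 at 0.67.

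The 10 genes with the smallest p were among the 183, with adjusted p from 2.48e-05 for Pmepa1 to 0.0218 for Fblim1 in edgeR with the score. They had been chosen by p in these same libraries, so their passing is not separate support. Nos2, Plin2, Cpt1a and Cxcl3 also passed (adjusted p = 9.09e-05, 0.00174, 0.00192 and 0.00306), as did Prdx1 (adjusted p = 0.00306), and Nqo1 did not (adjusted p = 0.297). The fit moved these values little, since Nos2 was at −0.47 with the score and −0.48 without it and Pmepa1 at 0.62 and 0.67. With the score the median log2 fold change was 0.022 for ribosomal protein genes and 0.015 for respiratory chain genes, which the score did not leave out. With the length trend removed these medians were 0.15 and 0.16. Interferon-stimulated genes were at −0.084 with 4 of 59 lower at an adjusted p below 0.05, and of the NF-κB-dependent genes 5 of 54 were lower and 1 higher, beside 0.564% lower and 0.727% higher over all genes in that fit.

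The largest differences among genes of at least 5 CPM with an unadjusted p below 0.05 and groups that did not overlap included those of Pmepa1, Hal, Ass1 and Mustn1 upwards and of Gm9115, Thbs1, Mmp9, Lix1 and Slc17a6 downwards. Hal, which degrades histidine, was at 3.70 and 4.77 CPM in DMSO + LPS and at 6.82 and 6.45 CPM at 3.2 µM (log2 fold change 0.65, 95% interval 0.35 to 0.94). Mustn1 differed by 0.48. Gm9115 was at 10.9 and 10.8 CPM in DMSO + LPS and at 6.00 and 6.49 CPM at 3.2 µM (−0.79). It is annotated as a processed pseudogene, so reads of its parent gene could be counted there and its value is uncertain. Lix1 and the glutamate transporter Slc17a6 both differed by −0.51. Angptl2, an angiopoietin-like secreted protein outside the naming rule and picked once its values were known, was at 2.10 and 1.77 CPM in DMSO + LPS and at 3.67 and 3.07 CPM at 3.2 µM (0.80).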

How the data were processed

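The authors deposited raw counts, the number of reads per mouse Ensembl gene in each library, without normalization. Per the methods and labels, RNA of RAW264.7 cells was poly(A)-selected and sequenced as stranded libraries. The submitters' processing notes name Trimmomatic, FastQC, STAR, DESeq2 and mm10. The counting tool, the use of strand and the annotation are not given in the sources used here.

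Of 43432 genes, 19292 had 0 counts in every library. Symbols, positions and lengths came from GENCODE M21 (GRCm38), matched on Ensembl identifiers, with symbols for 42548 genes and lengths for 99.31% of those tested. In edgeR 4.0.16 (R 4.3.3), filterByExpr at its minimum count of 10 left 14172 genes. TMM factors were computed, and all 10 libraries entered 1 model with a mean per group. The fit had 5 residual degrees of freedom, a biological coefficient of variation of 0.128 and 2.76 prior degrees of freedom. Totals lay between 45966803 and 58976377, and at 5 CPM a library held at least 230 counts. Quasi-likelihood F tests were adjusted by the Benjamini-Hochberg method. An exact permutation of 2 and 2 libraries gives no p under 0.333, so the test rests on the spread pooled over groups and genes. Intervals are 95% intervals from the same fit. Replicates differed by more than sampling noise (chi-square per degree of freedom 5.85 in DMSO + LPS and 3.25 at 3.2 µM), so none was taken for a repeat deposit of another. It was 36.75 in DMSO, 45.71 at 10 µM and 174.1 at 32 µM, whose spread also enters the pooled test.

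The genes named were the 10 with the smallest p and, of those with an unadjusted p below 0.05 and no overlap, the 5 furthest up and the 5 furthest down, all with a mean of at least 5 CPM, members of 28 gene lists with an unadjusted p below 0.05 or the smallest p in their list, well-known members of the main lists, and abundant genes with short transcripts. Genes outside this rule are marked, and 1 gene that met it is not reported here. The members, lists and tests were chosen with earlier results of these data known. The histone list was corrected after the files were read, since its pattern had caught MHC genes (49 tested, median −0.052). The osteoclast marker list (9 tested) had a median of 0.050. B cell (2 tested), neutrophil (2) and fibroblast (3) markers were near 0 CPM except Blnk and S100a8, and T cell markers except Lck. Direct tests of 10 and 32 µM against 3.2 µM were added to the design.

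Alternatives were other size factors, filters, a replicate block, the short-transcript score, a length trend removed per library (loess span 0.5), the likelihood ratio test, DESeq2 1.42.0, the 4 libraries alone, a 2-fold cutoff and leaving out each library. The steps were tested on simulated data.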

Additional observations from a re-analysis of the deposited data

How the results depend on the processing

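The number of genes called, 0, was also 0 with DESeq2's size factors, library size alone, a mean of at least 5 CPM, transcripts of at least 1000 nt only, the length trend removed, the replicate block and a 2-fold cutoff. It was 1 without a count filter, 6 with the short-transcript score, 6 with the replicate block and the score, 3 with the likelihood ratio test, 66 with edgeR and 48 with DESeq2 on the 4 libraries, 8 with DESeq2 on 10 libraries, and 0 to 1 with each library left out (1 without DMSO + LPS replicate 2, and 1, Lars2, without either 32 µM library). The causes were not tested. The 39 higher genes past 1.5-fold at the unadjusted p became 118 without a count filter, 2 at a mean of at least 5 CPM, 118 with the replicate block, 112 with the likelihood ratio test, 197 and 105 with edgeR and DESeq2 on the 4 libraries, 25 with DESeq2 on 10 libraries, 21 at 2-fold, and 23 to 88 with a library left out (23 without 3.2 µM replicate 1, 81 and 88 without 10 µM replicates 1 and 2). The 81 lower genes became 2 at a mean of at least 5 CPM, 157 with edgeR on the 4 libraries, 30 with DESeq2 on 10 libraries, and 42 to 106 with a library left out (42 and 50 without DMSO + LPS replicates 1 and 2). The labels do not say what a replicate number shares, and the correlations of replicate differences did not all exceed 0.1, so no pairing was taken. They were −0.44 to −0.24 for DMSO + LPS with each other group and 0.43 to 0.83 among the others. In a paired fit crossed for DMSO + LPS, chosen after seeing the data, 4 genes were called, 3 of them epithelial, with 129 higher and 94 lower past 1.5-fold and 1121 genes in place of 600 at the unadjusted p. The epithelial Krt8 was also among the 6 with the block and the score. The count of intervals within 1.5-fold, 9592, stayed within 1.5 times under every alternative that gives intervals (8808 to 9828 with a library left out).

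The median of transcripts under 1000 nt, 0.13, was 0.00 without a count filter, 0.0015 with the score, 0.0073 with the block and the score, 0.012 with the length trend removed, and 0.076 to 0.19 with a library left out (0.19 without DMSO + LPS replicate 2, 0.076 without 3.2 µM replicate 1). The median of the Nrf2 targets, 0.063, was 0.049 without a count filter, 0.039 with the block and the score, and 0.037 to 0.078 with a library left out. That of the NF-κB-dependent genes, −0.025, was −0.033 with library size alone, −0.039 without a count filter, −0.040 with transcripts of at least 1000 nt, −0.045 with the score, −0.050 with the block and the score, −0.054 with the length trend removed, and −0.040 to −0.016 with a library left out. For interferon-stimulated genes the median of −0.094 moved to −0.10 with library size alone, −0.11 without a count filter, −0.084 with the score, −0.10 with the length trend removed, and −0.12 to −0.070 with a library left out.

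Of the genes with a fold change in the text, 4 changed sign, each near 0. Ccl2 was at −0.0067 with the length trend removed. Ptgs2 was at 0.060 with the score, 0.063 with the block and the score, 0.026 without DMSO + LPS replicate 1 and 0.0092 without 3.2 µM replicate 1 (range with a library left out −0.059 to 0.026). Isg15 was at 0.058 without DMSO + LPS replicate 2 and 0.013 without 3.2 µM replicate 2 (range −0.070 to 0.058). Cxcl10 was at −0.0015 with DESeq2's size factors and with DESeq2 on 10 libraries, −0.0060 with library size alone, −0.012 without a count filter, −0.0023 at a mean of at least 5 CPM, −0.056 with the score, −0.052 with the block and the score, −0.011 with the length trend removed, −0.0024 with DESeq2 on the 4 libraries, and −0.024 to 0.028 with a library left out. Over the 24 alternatives the log2 fold change of Odc1 lay between −0.40 and −0.34, that of Nos2 between −0.52 and −0.45 and that of Pmepa1 between 0.61 and 0.73, and their adjusted p ranged from 4.59e-17, 4.12e-19 and 1.25e-18 to 1.00. It was below 0.05 in 7, 7 and 8 of these, and for Spp1 in 6. For all 4 genes these included both fits with the score, edgeR and DESeq2 on the 4 libraries, DESeq2 on 10 libraries and the crossed block. Depth limits genes under 1 CPM, of which 0.265% had an interval within 1.5-fold.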
